A study of Equus caballus with 6 samples.

Results

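Antioxidant and glutathione enzymes were examined in the inner cell mass (ICM) and the trophectoderm (TE) of horse blastocysts. They were taken by gene symbol: superoxide dismutases, catalase, glutathione peroxidases, peroxiredoxins, thioredoxins and their reductases, glutathione synthesis enzymes, glutaredoxins, glutathione transferases, methionine sulfoxide reductases, and the regulator NRF2 with its partners. The symbols found 44 of the 12270 rows of the deposited table, each once, and TXNIP, MT1A, MT2A and SRXN1, which the choice also names, were not analysed here. The ICM (libraries 15, 22 and 25) is the inner cluster of cells that gives rise to the embryo and yolk sac endoderm, and the TE (libraries 16, 23 and 24) is the outer epithelium that gives rise to placenta. All 6 came from blastocysts made in vivo and collected on day 8 from superovulated mares (Equus caballus), with no other treatment named. TE was removed mechanically after Pronase, a protease mix, and the remaining ICM was purified by immunosurgery, a lysis of outer cells with antibody and complement. Tissue and isolation method therefore cannot be told apart in any difference below. RNA was extracted with Picopure and amplified to cDNA with Nugen Ovation before TruSeq DNA libraries were made. The labels name neither the mares nor which ICM and TE came from the same embryo, so the spread between libraries is the only error measured.

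These enzymes remove reactive oxygen in steps. Superoxide dismutases turn superoxide into hydrogen peroxide, and catalase, glutathione peroxidases and peroxiredoxins turn peroxides into water or alcohols. The peroxidases are recharged by glutathione or by thioredoxin, small thiol carriers that GSR and the thioredoxin reductases restore with electrons from NADPH. The transcription factor NRF2 (gene NFE2L2) switches on many of these genes in other mammals, and the adaptor KEAP1 marks NRF2 for destruction until oxidants or electrophiles inactivate KEAP1. Preimplantation embryos are sensitive to oxidants, and glutathione stored in the oocyte protects the early embryo in several mammals.

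Levels are given in RPKM, reads per kilobase of gene model, scaled by the authors for library depth. The genes of the table held 6526212 to 10686659 reads, depending on the library. Library ICM 25 stood apart: in the deposited scaling it was the lowest of the 6 libraries for 50.9% of the 9436 genes tested and the highest for 9.95%. Its median of ratios factor, 1 value per library by which the rescaling below divides all levels, was 0.734. The factors of the other libraries were 1.002 to 1.14, so the levels of ICM 25 before rescaling were low across genes in general. How many of its lowest ranks remain after rescaling was not tested. The summed RPKM of 5 trophectoderm markers was 11.6, 23.2 and 18.2 in ICM 15, 22 and 25, against 92.3 to 116 in the TE libraries, which goes with the labels. The summed RPKM of 5 epiblast markers was 122, 128 and 47.7 in ICM 15, 22 and 25, against 35.6 to 55.9 in TE. Most of this sum is POU5F1 (93.1, 102 and 35.97 RPKM in ICM 15, 22 and 25, against 33.2 to 53.6 in TE), for which ICM 25 lay within the TE range. For the other 4 ICM 25 lay above every TE library: it had 1.75 RPKM of NANOG (TE at most 0.16), 8.09 of KLF4 (TE at most 2.22), 1.44 of GDF3 (TE at most 0.070) and 0.44 of SOX2 (listed at 0 in TE). For hypoblast, the endoderm part of the ICM, the 4 markers with a row summed to 62.0, 62.5 and 20.8 RPKM in ICM 15, 22 and 25, against 14.5 to 22.7 in TE. In ICM 25 PDGFRA and BMP2 (6.14 and 6.12 RPKM) were above every TE library, and GATA4 and GATA6 (2.33 and 6.19 RPKM) below them all. Of 19 fixed markers of red cells, white cells, endometrium and cumulus only ALAS2 (0.74 to 2.68 RPKM in ICM, 0.54 to 1.40 in TE) and CD3E (0 to 0.19 in ICM, 0.11 to 0.71 in TE) had a row. In these bulk libraries a smaller share of a cell type cannot be told apart from less RNA per cell. Results that rest on ICM 25 are given with and without it, and the part of the tissue makeup of ICM 25 in them was not tested.

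Most of the 44 genes lay above the middle of the table in both tissues. Their median level was 10.2 RPKM in ICM and 8.98 in TE, where the median of all rows was 3.64 and 3.83. Over all libraries 21 of them averaged 10 RPKM or more and 6 less than 1 RPKM. Together they took 0.373%, 0.355% and 0.307% of the reads in ICM 15, 22 and 25, against 0.319%, 0.328% and 0.331% in TE 16, 23 and 24. Their summed level was 1539 ± 366 RPKM in ICM and 1476 ± 128 in TE (SD, n = 3 each), a ratio of 1.04 that was 1.19 without ICM 25. The tissues overlapped in both measures. After median of ratios rescaling the sums were 1795, 1528 and 1527 RPKM in ICM 15, 22 and 25, against 1317, 1409 and 1406 in TE 16, 23 and 24. The ratio was then 1.17 with no overlap. Before rescaling and without GPX3, the gene with the highest mean, the sums were 1252 ± 245 RPKM in ICM and 1253 ± 141 in TE.

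**Figure D1:**
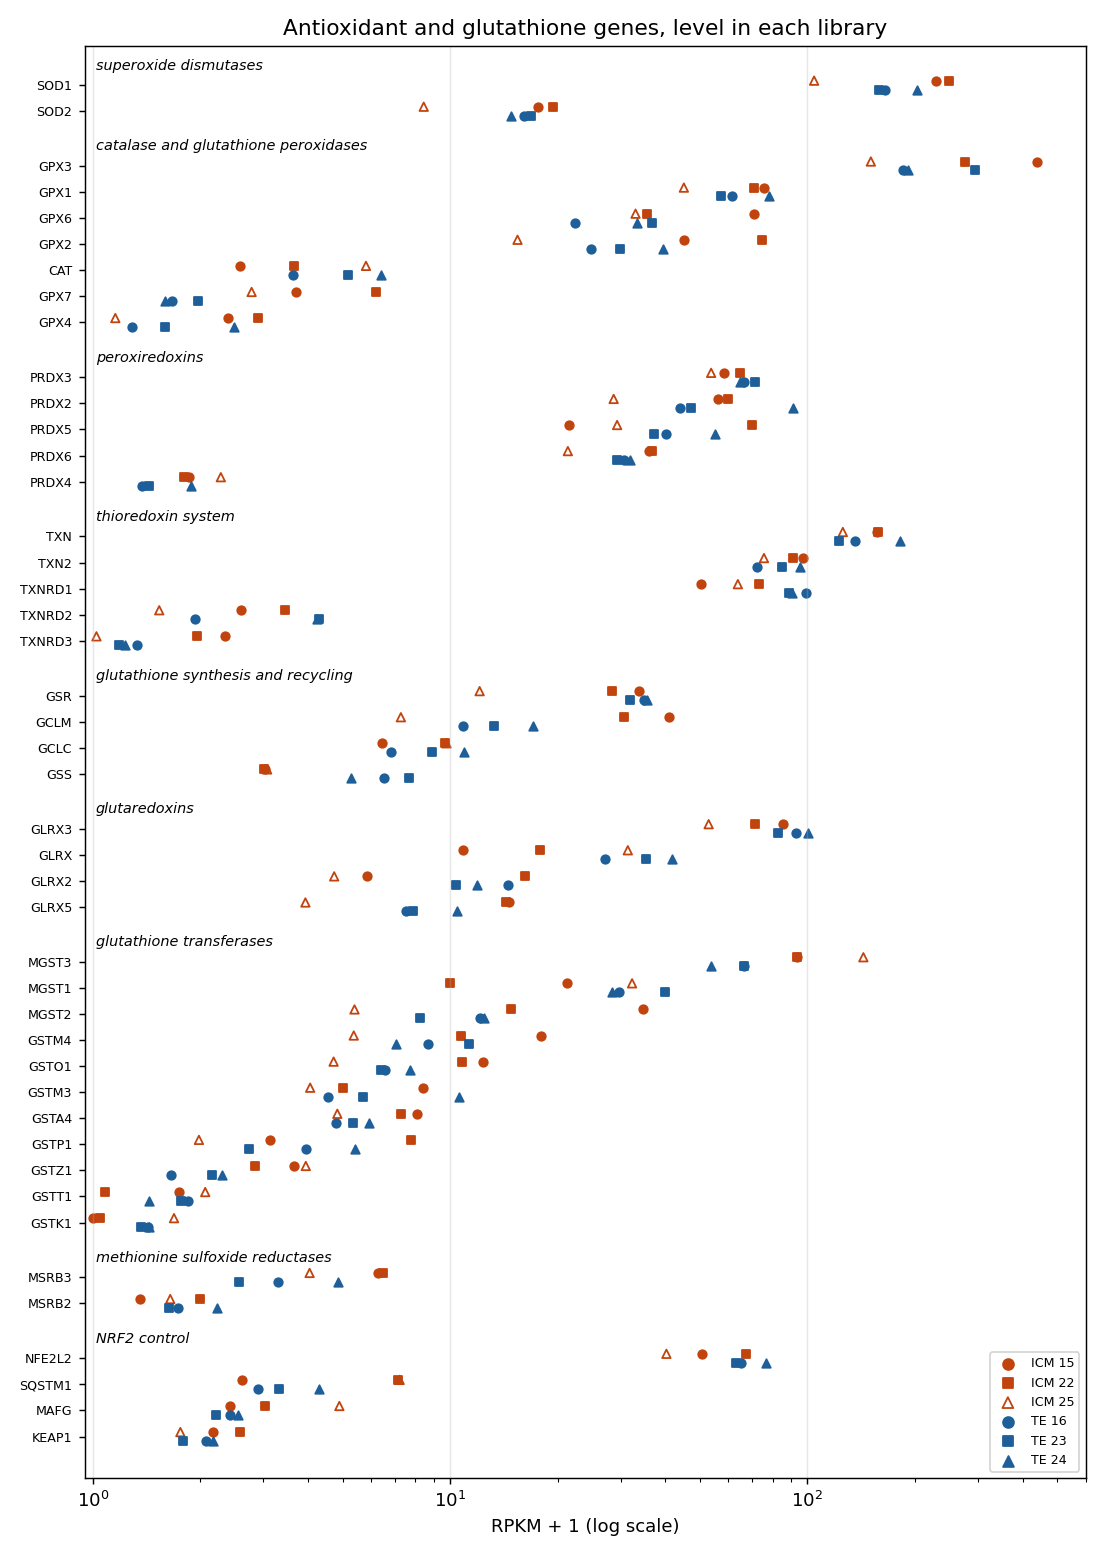
RPKM + 1 of the 44 genes (log scale) in each library, grouped by role and sorted by level, with ICM libraries in orange above TE libraries in blue. ICM 25 (open triangles) is the lowest library for many genes, among them SOD1, GPX2, GSR and GCLM. It is the highest for some others, among them MGST3, GSTZ1, MAFG and SQSTM1.

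Setting ICM against TE asks which of these enzymes differ between the tissues as isolated. No gene of the family passed the test with all 6 libraries (0 of 39 tested, limma, adjusted p under 0.05 over all genes), where 1.87% of all genes did (0.933% higher in ICM and 0.933% higher in TE). The nearest were GSS, the last enzyme of glutathione synthesis, with less in ICM, and the peroxidase GPX7, with more in ICM. At an unadjusted p under 0.05 there were 6 genes, or 15.4%, against 16.9% of all genes: GPX7, MGST3 and GSTZ1 with more in ICM, and GSS, GLRX and TXNRD1 with less. Voom on the recovered reads called 0 of the 39, against 125 of all 9436 genes. Before adjustment 6 of the 39 passed it, or 15.4%, against 1552 of all genes. In the deposited scaling, the only one in which overlap of single genes was counted, ICM and TE did not overlap for 5 of the 39. That is 12.8%, against 24.6% of all genes. ICM lay above TE for GPX7, MGST3 and GSTZ1 (6.81% of all genes) and below it for GSS and TXNRD1 (17.8% of all genes). The share of calls among these genes was thus no greater than the background.

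The median log2 difference of the family moved with the scaling and with single libraries, and so did that of all genes. The log2 difference (ICM minus TE, on log2(RPKM + 1)) was positive for 20 of the 39 genes and negative for 19, while 35.3% of all genes had a positive one. The median of these differences was 0.01 for the family and -0.15 for all genes. With median of ratios rescaling, which moved the median of all genes to 0.01, the median of the family was 0.19 and 25 of 39 were positive. With quantile normalization the median of the family was 0.14 with 23 of 39 positive (all genes -0.027, 47.3% positive). Without ICM 25 the median was 0.22 with 25 positive (all genes -0.010, 49.2% positive). Without ICM 22 it was -0.15 with 14 positive (all genes -0.26, 29.4% positive). In each of these fits the median of the family lay above that of all genes, a gap that was not tested.

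In the deposited scaling ICM 25 was the lowest of the 6 libraries for 22 of the 39 genes, or 56.4%, against 50.9% of all genes. It was the highest for 4 of the 39. Leaving it out, ICM and TE did not overlap for 18, or 46.2%, against 44.4% of all genes. ICM lay above TE in 14 of the 39 (against 21.6% of all genes) and below it in 4 of the 39 (against 22.8% of all genes). Without it, 5 genes passed (limma, adjusted p under 0.05), or 12.8%, against 11.5% of all genes. GCLM, GPX7 and GSTO1 were higher in ICM, and GSS and GLRX were lower. With library weights, which give ICM 25 the least weight, 4 passed, against 8.05% of all genes: GPX7 was higher in ICM, and GSS, GLRX and MGST1 were lower. In the authors' deposited table, 5 of the 44 genes, or 11.4%, had an adjusted p under 0.05, against 16.6% of the table: GCLM, GPX7 and MGST3 with more in ICM and GSS and GLRX with less. GSS, GPX7, GCLM and GLRX are in this set and in the one without ICM 25, which come from the same libraries.

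**Figure D2:**
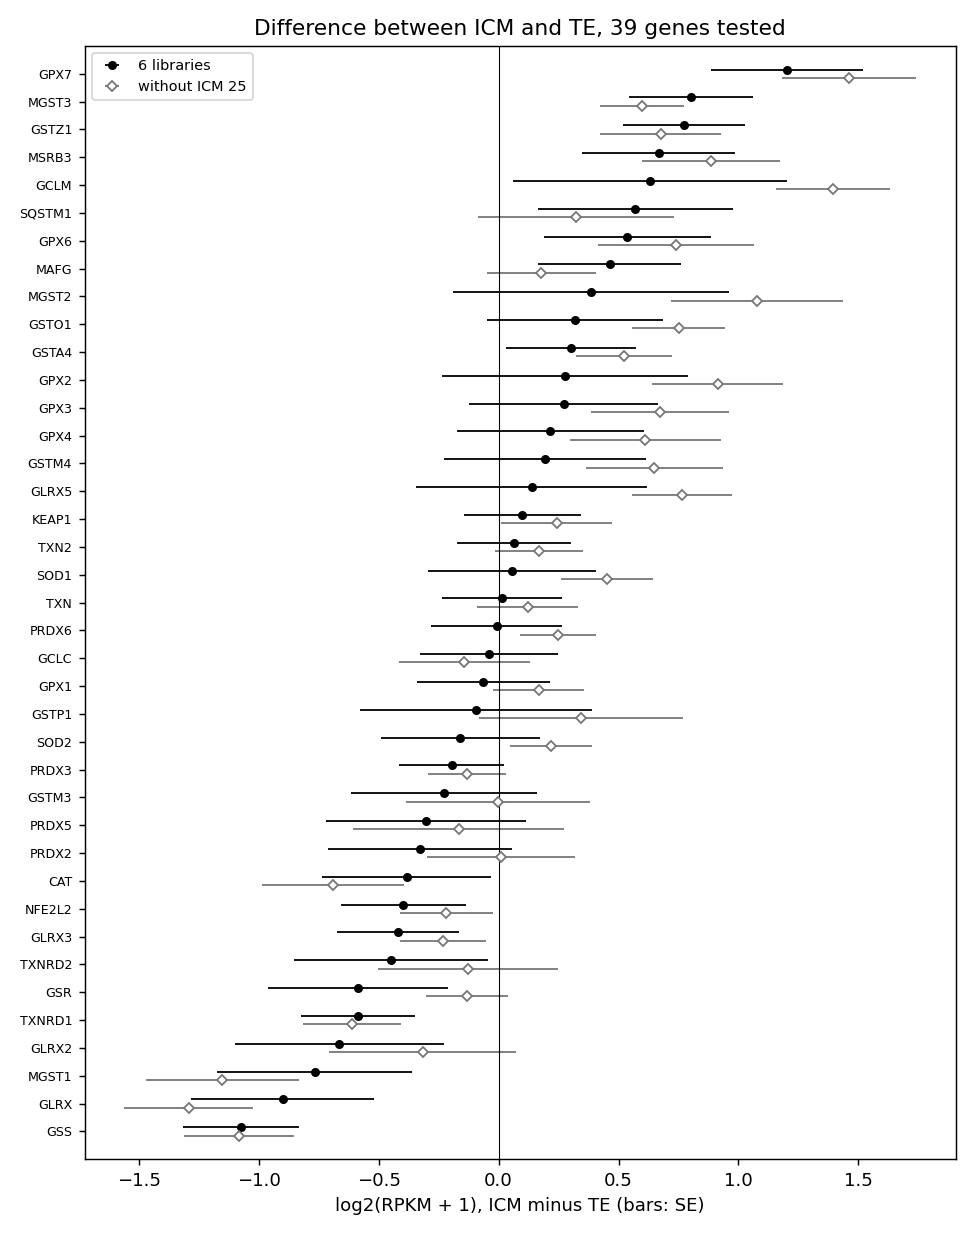
Log2 difference of ICM minus TE for the 39 genes tested, with bars for the SE, fitted to 6 libraries (black) and without ICM 25 (grey). GPX7 is at the top (1.20) and GSS at the bottom (-1.07) with 6 libraries, and GCLM moves from 0.63 to 1.39 when ICM 25 is left out.

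Glutathione is made in 2 steps: GCLC, aided by its modifier subunit GCLM, joins glutamate and cysteine, and GSS adds glycine. GSS was at 2.04, 2.02 and 2.08 RPKM in ICM 15, 22 and 25, against 5.51, 6.69 and 4.27 in TE 16, 23 and 24. All ICM values lay below all TE values, and the ICM libraries were nearly equal in the deposited scaling, ICM 25 included. The log2 difference was -1.07 (SE 0.24, limma adjusted p = 0.068, n = 3 each), and -1.08 without ICM 25 (adjusted p = 0.024). With median of ratios rescaling it was -0.92 (limma adjusted p = 0.11), and with quantile normalization -0.96 (adjusted p = 0.094). Behind these values were 73 to 88 reads in ICM and 158 to 210 in TE. The authors' deposited table gives GSS a fold of 0.373 for ICM over TE with an adjusted p of 0.010. GSS spans 25760142 to 25780862 of chromosome 22 in the file's coordinates, for which no build is named.

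GCLM lay on the other side in 2 of the 3 ICM libraries. It was at 40.1, 29.8 and 6.28 RPKM in ICM 15, 22 and 25, against 9.88, 12.3 and 16.1 in TE 16, 23 and 24. ICM 15 and 22 lay above all TE libraries and ICM 25 below them all. With 6 libraries the log2 difference was 0.63 (SE 0.57, limma adjusted p = 0.63), and without ICM 25 it was 1.39 (SE 0.24, adjusted p = 0.012). The authors' deposited table has an adjusted p of 0.00096 for it. Its partner GCLC was at 7.63 ± 1.90 RPKM in ICM and 7.88 ± 2.06 in TE (SD, n = 3 each), with overlapping values. GSR, which reduces used glutathione, was at 32.9, 27.5 and 11.1 RPKM in ICM 15, 22 and 25, against 30.9 to 34.5 in TE (limma adjusted p = 0.48, and 0.67 without ICM 25).

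**Figure D3:**
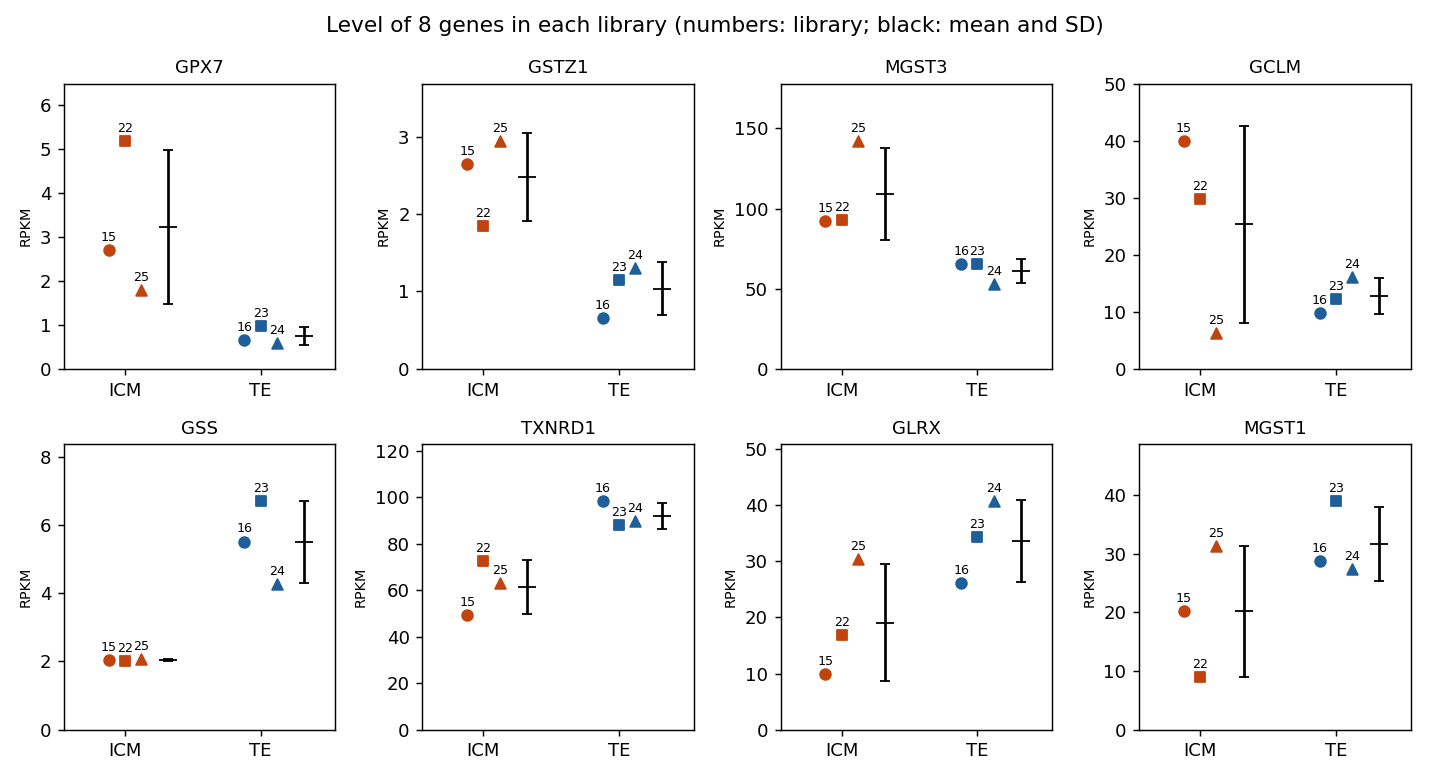
RPKM in each library for 8 genes, ICM left of TE, numbered by library, with the mean and SD of each tissue in black. ICM lies wholly above TE for GPX7, GSTZ1 and MGST3 and wholly below it for GSS and TXNRD1, while ICM 25 (6.28 RPKM of GCLM, 30.4 of GLRX) crosses into or past the TE range for GCLM, GLRX and MGST1.

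Among the peroxide-removing enzymes, GPX7 had the largest difference. GPX7 is a peroxidase of the endoplasmic reticulum that, unlike most of its family, carries cysteine in place of selenocysteine. It was at 2.70, 5.18 and 1.78 RPKM in ICM 15, 22 and 25, against 0.67, 0.97 and 0.60 in TE 16, 23 and 24. All ICM values were above all TE values, though they rest on 37 to 133 reads in ICM and 13 to 16 in TE. The log2 difference was 1.20 (SE 0.32, limma adjusted p = 0.10, n = 3 each). Without ICM 25 it was 1.46 (limma adjusted p = 0.017), with quantile normalization 1.32 (adjusted p = 0.048), and with median of ratios rescaling 1.30 (adjusted p = 0.052). The authors' deposited table gives a fold of 4.33 with an adjusted p of 0.00031. GPX7 spans 6759738 to 6765838 of chromosome 2 in the same coordinates.

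GPX3, the secreted peroxidase of plasma, had the highest mean RPKM of the family over the 6 libraries, though SOD1 was above it in TE 24. It was at 439, 274 and 149 RPKM in ICM 15, 22 and 25, against 184, 292 and 191 in TE 16, 23 and 24. The tissues overlapped (limma adjusted p = 0.79, and 0.17 without ICM 25). Its gene model held only 231 bases, so this level per length covers a short part of the gene. GPX1, the cytosolic form, was at 74.6, 69.7 and 44.1 RPKM in ICM 15, 22 and 25, against 60.5, 56.4 and 77.0 in TE 16, 23 and 24, again with overlap. GPX2, known from gut epithelium, was at 44.2, 73.5 and 14.4 RPKM in ICM 15, 22 and 25, against 23.8 to 38.4 in TE (limma adjusted p = 0.84, and 0.070 without ICM 25). GPX6, known from olfactory epithelium in human, was at 45.5 ± 21.2 RPKM in ICM and 29.8 ± 7.43 in TE. GPX4, which repairs lipid peroxides in membranes, had 9, 15 and 1 reads in ICM 15, 22 and 25, against 2, 3 and 10 in TE 16, 23 and 24. Its model of 265 bases on an unplaced contig is too short for the whole coding sequence, so its level could not be read.

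Catalase (CAT), the peroxisomal enzyme, was at 1.58 to 4.82 RPKM in ICM and 2.64 to 5.42 in TE (limma adjusted p = 0.64, and 0.17 without ICM 25). SOD1, the copper and zinc dismutase of the cytosol, was at 227, 248 and 103 RPKM in ICM 15, 22 and 25, against 164, 157 and 202 in TE 16, 23 and 24. ICM 15 and 22 were above the TE libraries and ICM 25 below them, so the groups overlapped (limma adjusted p = 0.96, and 0.17 without ICM 25). The mitochondrial manganese dismutase SOD2 was lower, with 16.7, 18.4 and 7.44 RPKM in ICM 15, 22 and 25, against 13.8 to 15.9 in TE. Its ICM libraries lay on the same sides of TE, while the order within TE was another. The ratio of SOD1 to SOD2 within a library was 13.5 to 13.9 in ICM and 9.90 to 14.6 in TE.

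Peroxiredoxins are peroxidases, most of which thioredoxin recharges. PRDX3 of the mitochondrion was at 58.0 ± 5.52 RPKM in ICM and 66.3 ± 3.39 in TE (SD, n = 3 each; limma adjusted p = 0.71). PRDX2 was at 27.7 to 59.0 RPKM in ICM and 43.1 to 90.3 in TE, PRDX5 at 20.5 to 68.9 and 36.2 to 54.3, and PRDX6, which also acts as a phospholipase, at 20.4 to 35.8 and 28.4 to 30.9. None passed the test, and all 4 had a negative log2 difference, from -0.33 to -0.0075, against 35.3% of all genes with a positive one. The sign turned for PRDX6 with either rescaling, with library weights, and without ICM 25 or TE 24. It turned for PRDX2 with library weights and without ICM 25 or TE 24, and for PRDX5 without ICM 15. PRDX4 of the endoplasmic reticulum had 15 to 22 reads in ICM and 6 to 16 in TE and stayed below the level needed for the test (1 RPKM in 3 libraries).

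In the thioredoxin system the carriers overlapped between the tissues in the deposited scaling, while the cytosolic reductase did not. Thioredoxin (TXN) was at 156, 157 and 125 RPKM in ICM 15, 22 and 25, against 135, 121 and 180 in TE 16, 23 and 24. Mitochondrial TXN2 was at 96.2, 89.98 and 74.6 RPKM in ICM 15, 22 and 25, against 71.2, 84.1 and 94.2 in TE 16, 23 and 24. The log2 difference was 0.01 for TXN and 0.06 for TXN2, with an SE of 0.25 and 0.24. TXNRD1, the cytosolic reductase, was at 49.3, 72.4 and 62.9 RPKM in ICM 15, 22 and 25, against 98.1, 87.8 and 89.7 in TE 16, 23 and 24. Every ICM library lay below every TE library, and the log2 difference of -0.59 (SE 0.24) did not pass (limma adjusted p = 0.26, and 0.093 without ICM 25). The TXNRD1 difference was -0.40 with median of ratios rescaling (limma adjusted p = 0.43) and -0.42 with quantile normalization (adjusted p = 0.37). TXNRD2, the mitochondrial form, was at 0.535 to 2.46 RPKM in ICM and 0.94 to 3.29 in TE. TXNRD3, known from testis in mouse, had 57, 49 and 1 reads in ICM 15, 22 and 25, against 15, 6 and 10 in TE 16, 23 and 24, and was not tested.

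Glutaredoxins use glutathione to reduce disulfides or to hand on iron-sulfur clusters. GLRX, the cytosolic form, was at 9.89, 16.8 and 30.4 RPKM in ICM 15, 22 and 25, against 26.1, 34.2 and 40.7 in TE 16, 23 and 24. Only ICM 25 reached the TE range. The log2 difference was -0.90 (SE 0.38, limma adjusted p = 0.28) with 6 libraries and -1.29 (SE 0.27, adjusted p = 0.022) without ICM 25. The authors' deposited table has an adjusted p of 0.046. GLRX3, a cytosolic iron-sulfur protein, was at 84.5, 70.3 and 51.9 RPKM in ICM 15, 22 and 25, against 91.6, 81.9 and 99.6 in TE 16, 23 and 24. GLRX2 was at 4.87, 15.2 and 3.74 RPKM in ICM 15, 22 and 25, against 13.5, 9.40 and 10.9 in TE 16, 23 and 24. GLRX5, which serves mitochondrial iron-sulfur assembly, was at 13.7, 13.3 and 2.94 RPKM in ICM 15, 22 and 25, against 6.53 to 9.46 in TE (limma adjusted p = 0.92, and 0.053 without ICM 25).

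Glutathione transferases couple glutathione to electrophiles, and the membrane-bound MGST forms also reduce lipid peroxides. MGST3 was the most abundant, at 92.4, 92.7 and 142 RPKM in ICM 15, 22 and 25, against 65.5, 65.2 and 52.8 in TE 16, 23 and 24. All ICM libraries lay above all TE libraries, with a log2 difference of 0.80 (SE 0.26, limma adjusted p = 0.17, and 0.067 without ICM 25). The authors' deposited table gives a fold of 1.79 with an adjusted p of 0.0040. MGST1 leaned the other way, at 20.2, 8.97 and 31.3 RPKM in ICM 15, 22 and 25, against 28.8, 38.9 and 27.4 in TE 16, 23 and 24, and ICM 25 lay inside the TE range (limma adjusted p = 0.39, and 0.055 without ICM 25). MGST2, which can make a leukotriene, was at 33.7, 13.9 and 4.40 RPKM in ICM 15, 22 and 25, against 7.25 to 11.4 in TE. Its log2 difference was 0.39 (limma adjusted p = 0.79), and 1.08 without ICM 25 (adjusted p = 0.092).

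Of the soluble transferases, GSTZ1, an isomerase of tyrosine breakdown, was at 2.65, 1.85 and 2.95 RPKM in ICM 15, 22 and 25, against 0.66, 1.15 and 1.30 in TE 16, 23 and 24. The tissues did not overlap, and the log2 difference was 0.77 (SE 0.25, limma adjusted p = 0.17), on 45 to 58 reads in ICM and 14 to 27 in TE. GSTO1 was at 11.4, 9.82 and 3.72 RPKM in ICM 15, 22 and 25, against 5.39 to 6.74 in TE, and passed only without ICM 25 (log2 difference 0.75, limma adjusted p = 0.045, against 0.72 with all libraries). GSTA4, which clears aldehydes of lipid peroxidation, was at 5.73 ± 1.69 RPKM in ICM and 4.36 ± 0.56 in TE. GSTM3 and GSTM4 are related genes that lie close together on chromosome 5. They were at 3.06 to 7.42 and 4.38 to 16.9 RPKM in ICM, against 3.55 to 9.58 and 6.08 to 10.3 in TE. Whether reads were split between them was not tested. GSTP1 was at 0.982 to 6.78 RPKM in ICM and 1.73 to 4.42 in TE. Its arithmetic mean was slightly higher in ICM (3.30 against 3.04 RPKM), while its log2 difference was -0.09. GSTT1 (2 to 21 reads in ICM, 9 to 18 in TE) and GSTK1 (0, 1 and 12 reads in ICM 15, 22 and 25, against 5 to 8 in TE) were too low for the test. The 0 reads of GSTK1 in ICM 15 allow up to 0.17 RPKM at a floor of 3 reads, for counting error only.

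Methionine sulfoxide reductases repair oxidized methionine. MSRB3 was at 5.30, 5.49 and 3.04 RPKM in ICM 15, 22 and 25, against 2.31, 1.57 and 3.86 in TE 16, 23 and 24 (log2 difference 0.67, SE 0.32, limma adjusted p = 0.34). ICM 25 lay below TE 24, and the MSRB3 row overlaps that of LEMD3, so reads may be shared. MSRB2 had 5 to 17 reads in ICM and 7 to 18 in TE and was not tested.

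The regulator NFE2L2 was abundant in both tissues and its inhibitor KEAP1 scarce. NFE2L2 was at 49.8, 66.3 and 39.3 RPKM in ICM 15, 22 and 25, against 64.2, 62.0 and 75.8 in TE 16, 23 and 24 (log2 difference -0.40, SE 0.26, limma adjusted p = 0.49). KEAP1 was at 1.17 ± 0.41 RPKM in ICM and 1.01 ± 0.20 in TE (SD, n = 3 each; limma adjusted p = 0.88). MAFG, a small MAF protein that pairs with NRF2 on DNA, was at 1.42, 2.02 and 3.90 RPKM in ICM 15, 22 and 25, against 1.21 to 1.56 in TE. SQSTM1, an autophagy receptor that binds KEAP1, was at 1.61, 6.14 and 6.22 RPKM in ICM 15, 22 and 25, against 1.89 to 3.29 in TE. None of the 4 passed the test, with or without ICM 25.

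Ratios of 2 genes within a library do not depend on the scaling between libraries, and 9 were formed for pairs chosen after their values were seen, with no test. The tissues overlapped in 6 of the 9 and did not in 3. GCLM over GCLC was 7.37, 3.43 and 0.72 in ICM 15, 22 and 25, against 1.70, 1.56 and 1.62 in TE 16, 23 and 24. The TE libraries were nearly equal, and the ICM libraries lay on both sides of them. GSS over GCLC was 0.38, 0.23 and 0.24 in ICM 15, 22 and 25, against 0.95, 0.85 and 0.43 in TE 16, 23 and 24. MGST3 over MGST1 was 4.58, 10.3 and 4.55 in ICM 15, 22 and 25, against 2.28, 1.68 and 1.93 in TE 16, 23 and 24. NFE2L2 over KEAP1 was 42.4, 42.0 and 51.8 in ICM 15, 22 and 25, against 60.1, 78.8 and 64.6 in TE 16, 23 and 24, where 33 to 103 reads of KEAP1 stand behind each value. These last 3 ratios are the ones that did not overlap, ICM 25 included. Beside SOD1 over SOD2, the ratios that overlapped were MGST3 over MGST2 (2.74 to 32.4 in ICM, 4.62 to 9.005 in TE), TXNRD1 over TXN (0.32 to 0.504 in ICM, 0.498 to 0.73 in TE), GPX1 over GPX2 (0.95 to 3.05 in ICM, 1.95 to 2.54 in TE) and GLRX over GLRX3 (0.12 to 0.59 in ICM, 0.28 to 0.42 in TE).

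**Figure D4:**
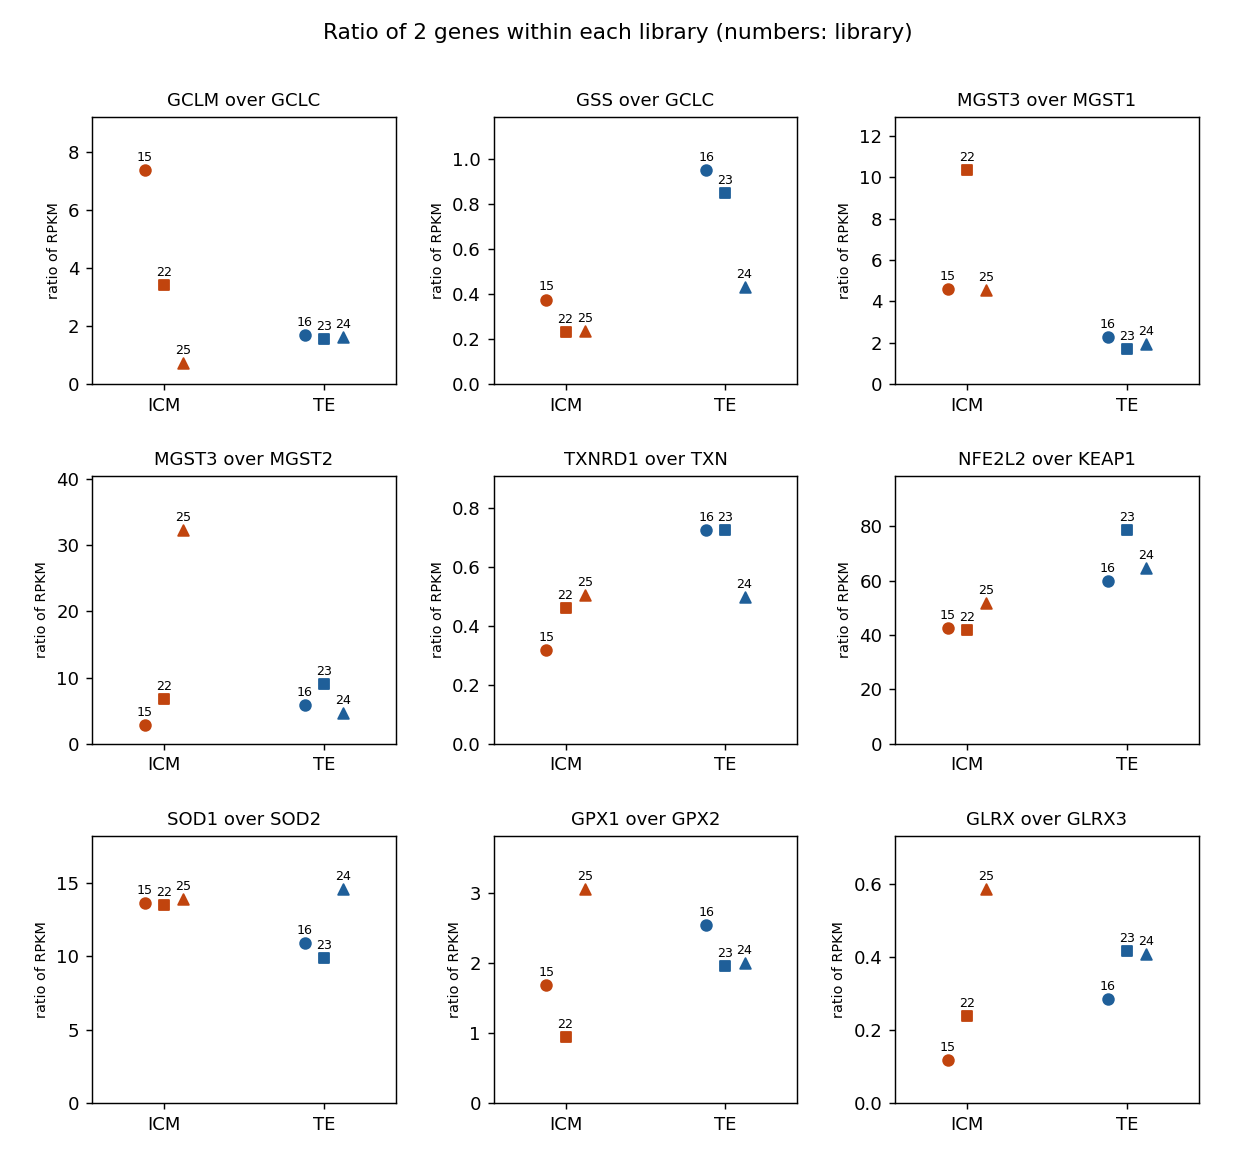
Ratio of RPKM of 2 genes within each library, ICM left of TE, numbered by library. GCLM over GCLC spreads from 0.72 to 7.37 in ICM around TE values of 1.56 to 1.70, and GSS over GCLC, MGST3 over MGST1 and NFE2L2 over KEAP1 are the 3 of 9 ratios that do not overlap between the tissues.

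Genes that work with this family were read from 6 lists of partners, NRF2 targets, glutathione and cysteine handling, NADPH supply, selenoproteins and other redox genes. Of their 94 distinct genes tested, 1 passed (limma, adjusted p under 0.05) and 17, or 18.1%, had an unadjusted p under 0.05, against 16.9% of all genes. Without ICM 25, 17 passed, or 18.1%, against 11.5% of all genes, 10 of them higher in ICM and 7 lower. The call with all libraries was LRP8, a receptor that takes up the selenium carrier selenoprotein P in mouse and stands in both the NRF2 target and the selenoprotein list. LRP8 was at 2.95, 3.14 and 3.97 RPKM in ICM 15, 22 and 25, against 10.6, 13.7 and 14.8 in TE 16, 23 and 24. It was lower in ICM with no overlap (log2 difference -1.68, SE 0.24, limma adjusted p = 0.022). The call was lost without ICM 15 (limma adjusted p = 0.063, log2 difference -1.62) or without TE 16, 23 or 24 (adjusted p = 0.12, 0.17 and 0.12, log2 differences -1.81, -1.65 and -1.59). Without one of the TE libraries 0 or 1 of all 9436 genes were called.

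Among the 16 NRF2 targets tested, NQO1, a quinone reductase, was second to LRP8, at 4.55 ± 0.75 RPKM in ICM and 2.48 ± 0.24 in TE, with no overlap (limma adjusted p = 0.20, and 0.063 without ICM 25). AKR1B1, ABCC4 and UGDH passed without ICM 25, higher in ICM (limma adjusted p = 0.0067, 0.018 and 0.045), but not with all libraries (0.59, 0.46 and 0.77). Of the 16 targets, 6 had a positive log2 difference and 10 a negative one, against 35.3% of all genes with a positive one. FTH1 had the lower mean in ICM, at 193 ± 92.3 RPKM against 336 ± 104 in TE, with overlap (limma adjusted p = 0.30). HMOX1, which degrades haem, was at 4.12, 5.17 and 23.6 RPKM in ICM 15, 22 and 25, against 5.39 to 10.9 in TE, so ICM 25 stood above the rest. Of the 13 partners of NRF2 tested 0 were called, and BACH1, a repressor that competes with NRF2 for its DNA sites, was at 13.5 ± 3.37 RPKM in ICM and 7.46 ± 1.13 in TE (limma adjusted p = 0.20, and 0.020 without ICM 25). SESN2, a stress-induced sestrin, was at 3.25 ± 1.75 RPKM in ICM and 1.13 ± 0.42 in TE.

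Of the 14 genes for glutathione precursors and breakdown 0 were called. CHAC1, which cleaves glutathione in the cytosol, was at 0.48, 1.21 and 0.92 RPKM in ICM 15, 22 and 25, against 2.36, 3.71 and 6.44 in TE 16, 23 and 24 (log2 difference -1.41, limma adjusted p = 0.074, and 0.040 without ICM 25). LAP3, a leucine aminopeptidase, was at 11.3 ± 2.86 RPKM in ICM and 21.1 ± 6.84 in TE. ANPEP and CNDP2 passed only without ICM 25, lower in ICM (limma adjusted p = 0.022 and 0.0498). Of the 13 NADPH genes 0 were called, and 3 had a positive log2 difference, against 35.3% of all genes. IDH1, the cytosolic isocitrate dehydrogenase, was at 30.7 ± 9.99 RPKM in ICM and 54.3 ± 7.15 in TE (limma adjusted p = 0.19, and 0.024 without ICM 25), and PGD of the pentose phosphate pathway at 77.1 ± 15.02 and 107 ± 26.4. Of the 16 selenoprotein genes tested, LRP8 was the call and SEPHS2, which makes the selenium donor, was at 5.21 ± 0.60 RPKM in ICM and 7.94 ± 0.44 in TE with no overlap (limma adjusted p = 0.28). Of these 16, 8 had a positive log2 difference and 8 a negative one. SEPW1 was at 16.4 ± 8.23 RPKM in ICM and 10.1 ± 2.35 in TE (limma adjusted p = 0.58, and 0.023 without ICM 25, higher in ICM). Of the 27 other redox genes 0 were called. PON2, a lactonase of membranes, was at 0.35, 0.49 and 0.86 RPKM in ICM 15, 22 and 25, against 1.46, 3.92 and 3.34 in TE 16, 23 and 24 (limma adjusted p = 0.082, and 0.032 without ICM 25). The zinc importer SLC39A10 was at 47.4, 25.5 and 6.19 RPKM in ICM 15, 22 and 25, against 4.88 to 6.09 in TE (limma adjusted p = 0.19, and 0.00325 without ICM 25). APEX1, FDX1 and TXNDC17, higher in ICM, and MTF1, lower in ICM, also passed only without ICM 25.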

How the data were processed

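The authors deposited 1 table for 6 libraries in RPKM. FastQC and DESeq are named, per the submitters' processing notes, and no version is given. Aligner, counter, build, annotation and strand setting: not given in the sources used here. Per the file headers the table also holds the authors' baseMean (a signal, the mean of normalized counts), fold (a ratio), log2 fold, p-value and adjusted p-value. The deposited fold is ICM over TE. RPKM and baseMean together gave back whole reads for 100% of the values up to 1000 reads (within 0.001 reads), and gene model lengths in whole bases.

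The test used the 9436 rows that reached 1 RPKM in 3 or more libraries, among them 39 of the 44 genes. Differences on log2(RPKM + 1) were tested by limma (version 3.58.1, R 4.3.3; linear fit, moderated with a trend on the mean), two-sided, and Benjamini-Hochberg adjustment ran over all 9436 at 0.05. This scale understates the change of low genes. Alternatives changed the pseudocount (0.1), the filter (none, or 5 RPKM), the scaling (median of ratios, quantile), the weights of the libraries and the input (voom on the recovered reads), and left out each library.

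The genes and lists were chosen with earlier results of these data known. By rule, values per library are given for genes whose tissues did not overlap, the 8 with the highest level and the 8 with the largest difference. GCLM, GSTO1 and others shown per library beyond these were added after their values were seen. Of each outside list, genes past the threshold or otherwise the 2 with the smallest p were named; NQO1, SEPHS2, HMOX1, AKR1B1, ABCC4 and UGDH were added after their values were seen. NCBI's gene table for TB-T2T holds 42 of the 44 symbols and served for names alone. A planned promoter motif search was not run. The amplified cDNA carried no molecular identifiers that the labels name, so floors cover counting error only.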

Additional observations from a re-analysis of the deposited data

How the results depend on the processing

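No paired analysis was possible because no replicate number occurs in both tissues. The count of family genes called higher in ICM was 0 with all libraries, 1 with quantile normalization or library weights, and 0 to 3 when 1 library was left out. That called higher in TE was 0, 3 with library weights, and 0 to 2 with 1 library left out. Without ICM 25 the counts were 3 and 2. All genes called were 176 (88 higher in ICM, 88 in TE), 112 with a pseudocount of 0.1, 114 without a filter, 81 when 5 RPKM were asked for, 760 with library weights (where the family had 4 calls, against 8.05% of all genes), and 0 to 1086 with 1 library left out. The lowest of these were 0, 1 and 1 without TE 16, 23 and 24, and 18 without ICM 15, and the highest was without ICM 25. Median of ratios rescaling called 128 of all genes higher in ICM and 64 in TE, quantile normalization 129 and 77, and voom 125 in all. Of the 94 outside genes 1 was called, and 0 to 17 with 1 library left out, the 17 (18.1%) without ICM 25. Of 494 values of the 39 genes under alternatives, 440 kept their direction and side of the threshold and 10, in 6 genes, passed it; MGST1 did so with library weights. The sign turned in 18 genes, whose log2 difference was at most 0.39 in size.

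With median of ratios rescaling the log2 difference became 0.13 for GPX1, 0.14 for GCLC, 0.014 for GSTP1, 0.18 for PRDX6 and 0.015 for SOD2. With quantile normalization it became 0.089 for GPX1, 0.11 for GCLC and 0.14 for PRDX6. With library weights it became 0.14 for GPX1, 0.42 for GSTP1, 0.038 for PRDX2, 0.19 for PRDX6 and 0.10 for SOD2. With 1 library left out it ran from -0.034 to 0.24 for KEAP1, -0.21 to 0.17 for GPX1, -0.22 to 0.91 for GPX2, -0.10 to 0.67 for GPX3, -0.052 to 0.61 for GPX4 and -0.18 to 0.76 for GLRX5. It ran from -0.22 to 0.16 for GCLC, -0.53 to 0.12 for GSTM3, -0.22 to 0.65 for GSTM4, -0.64 to 0.34 for GSTP1, -0.26 to 1.08 for MGST2 and -0.52 to 0.010 for PRDX2. It ran from -0.79 to 0.056 for PRDX5, -0.14 to 0.25 for PRDX6, -0.18 to 0.45 for SOD1, -0.38 to 0.22 for SOD2, -0.11 to 0.18 for TXN and -0.042 to 0.17 for TXN2. The cause was not tested. Depth limits GPX4, TXNRD3, PRDX4, GSTK1, GSTT1 and MSRB2, with at most 57 reads in any library.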
